A study of Homo sapiens with 18 samples.

Results

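Unirradiated cells of 2 human lung cancer lines were compared, H446 against A549. The comparison took in 6 of the 18 RNA-seq libraries of the series, 3 control libraries labelled H446 and 3 control libraries labelled A549, chosen by the cell line and the treatment given in the labels. A549 is a human lung adenocarcinoma line, a non-small cell lung cancer. H446 is labelled as a human small cell lung cancer line. Both were labelled wild type, neither had received X-rays (0 Gy), and both were grown in RPMI-1640 with fetal bovine serum. The rest of the series held the irradiated libraries (10 Gy) of the same lines and the libraries of BEAS-2B, an immortalized bronchial epithelial line, whose 3 controls are given as a reference level. Each group stands for 1 established line in culture, and the labels do not tie the replicates to separate cultures, although the methods of the study say that experiments were repeated, so that the p-values measure the spread between these samples, which may be technical.

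Small cell lung cancer is usually a neuroendocrine tumour. Its cells store peptide hormones in dense-core granules, use synaptic vesicle proteins for release, and depend on transcription factors such as NEUROD1, while RB1 is commonly lost. H446 has been described as a variant line with a low content of neuroendocrine products. The libraries labelled H446 went against that label in their markers, as given below, so that the comparison is one of libraries under these labels, and whether the cells were H446 was not tested. Adenocarcinoma cells derive from the glandular epithelium of the distal lung. A549 is known for a mutated KEAP1, which leaves the antioxidant factor NRF2 active, for mutations of STK11 and SMARCA4, and for a deletion of CDKN2A.

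Values are treated as FPKM, reads per kilobase of transcript and per library size, so that levels of different genes can be set side by side. The total FPKM per library was 470558 to 481987 in H446-labelled controls and 484169 to 501302 in A549 controls, and replicates correlated across genes with a Pearson r of 0.998 to 0.999. Differences below are means of log2(FPKM + 1) in H446-labelled libraries minus those in A549, with standard errors and Benjamini-Hochberg adjusted p from limma. Where 1 line is near 0, the size of the difference depends on the value of 1 added, and where 1 line is listed at 0 in every library no difference is given. Of 12404 genes tested, 10930 passed an adjusted p of 0.05 (88.1%), 5378 higher in H446-labelled libraries (43.4%) and 5552 lower (44.8%). Since nearly every gene passed, counts are also given for genes that passed with a difference of at least 2-fold, which were 3598 (29.0%), 1719 higher (13.9%) and 1879 lower (15.1%). The shares over all genes are the background to the counts of each list below. The groups of 3 and 3 libraries did not overlap in 10958 genes (88.3%). The median size of the difference was 0.68 on the log2 scale among the genes that passed, and 206 genes were higher and 208 lower by at least 3, which is 8-fold on this scale. The median over all genes tested was -0.01.

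**Figure D1:**
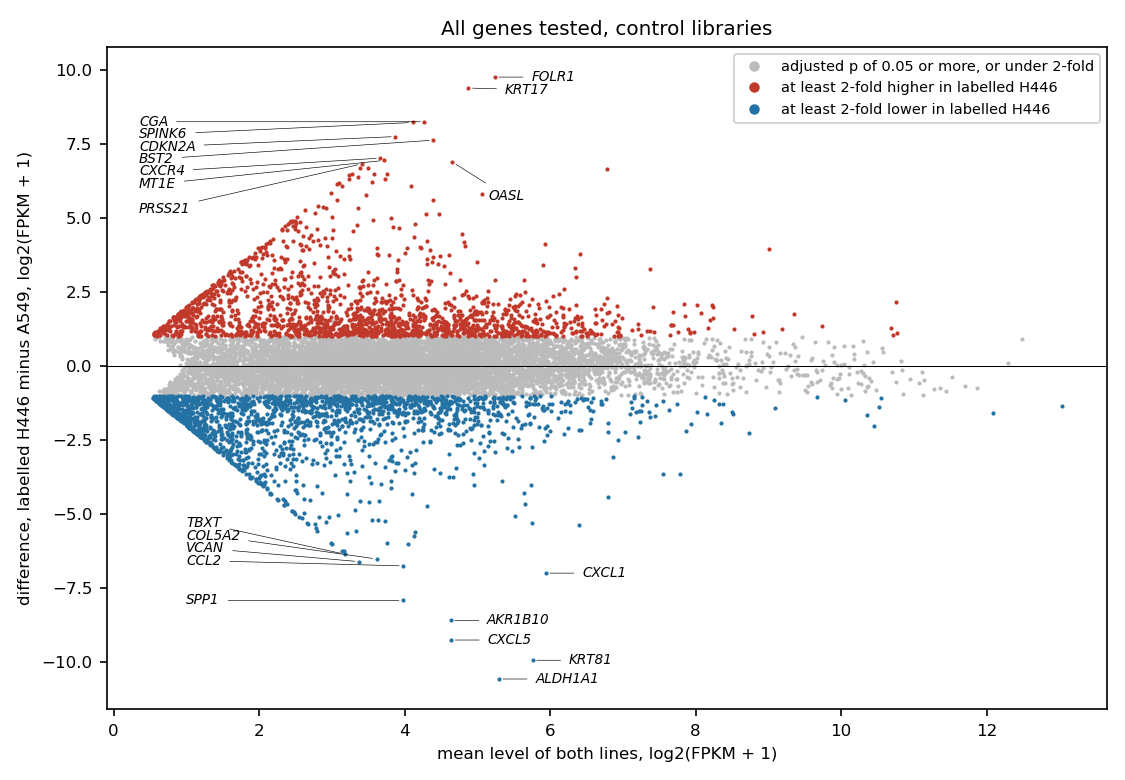
Difference between control libraries labelled H446 and A549 (vertical axis, log2(FPKM + 1)) against the mean level of both lines (horizontal axis, log2(FPKM + 1)) for the 12404 genes tested, 1 point per gene. The 10 genes named in each direction reach 9.75 for FOLR1 and -10.57 for ALDH1A1, and the straight outer edges are genes listed at or near 0 in 1 line.

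Neuroendocrine markers usual in small cell lung cancer were looked for first, and several were at or near 0 in the libraries labelled H446. CHGA, the granule protein chromogranin A, was listed at 0.05, 0 and 0 FPKM, and CHGB at 0 in all 3 libraries. SYP, which encodes synaptophysin, stood at 0.09, 0.29 and 0.19, and NCAM1, the adhesion molecule CD56, at 0.01, 0 and 0. SOX2, SOX11 and ELAVL4 were listed at 0 in the 3 libraries, and DLL3, a Notch ligand of neuroendocrine tumours, at 0.52, 0.15 and 0.3. POU2F3, the marker of the tuft cell form of small cell cancer, was 0.23, 0.2 and 0.33. NEUROD1, INSM1, GRP and CALCA were not analysed here. The libraries are called H446-labelled, and no other identity is given to them.

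Secretory and vesicle genes were compared next. Of 25 secretory granule and synaptic vesicle genes, 15 passed the filter on low values, 9 of them only through A549, and 11 were lower in H446-labelled libraries (10 by at least 2-fold) against 2 higher. The 9 had to be lower in H446-labelled libraries, and the median was -1.33 over the members tested, -0.98 with no filter and -0.57 over members at 1 or more in all 6 libraries. CPLX2, the complexin of vesicle release, was listed at 0 in H446-labelled libraries and at 64.45, 58.99 and 64.59 in A549, without overlap. SNAP25, a fusion protein of the same machinery, was 1.08, 1.38 and 1.46 against 30.73, 27.61 and 26.64 (-3.67), so that the lowest A549 library lay far above the highest H446-labelled library. SYT1, RAB3B and SYT11 were lower by 2.94, 2.97 and 1.29, and PCSK1N was listed at 0 against 7.86, 7.02 and 8.03. PCSK1, the prohormone convertase, was an exception at 3.87, 3.89 and 3.67 against 0.14, 0.09 and 0.18 (2.08), as was RAB3A (1.59).

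Neuronal cytoskeleton, adhesion and axon genes formed a further list. Of 28 listed, 17 passed the filter, 6 of them only through A549, and 14 were lower in H446-labelled libraries (10 by at least 2-fold). The median was -1.84 over the members tested, -0.52 with no filter and -0.45 over members at 1 or more in all 6 libraries. UCHL1, the neuronal ubiquitin hydrolase PGP9.5, was 23.51, 22.51 and 22.64 in H446-labelled libraries and 520.91, 525.49 and 494.83 in A549 (-4.43). DPYSL3, a collapsin response mediator, was 1.53, 1.37 and 1.29 against 127.86, 124.51 and 127.67 (-5.74). Its relative DPYSL4 was low in both, at 0, 0.03 and 0.15 against 2.04, 2.02 and 2.3 (-1.56). TUBB3 (-2.55) and MAPT (-2.90) were also lower. NEFL and CADM1 were lower too, listed at 0 against 6.01, 5.86 and 5.28 for NEFL and 21.45, 21.47 and 22.99 for CADM1. L1CAM, a neural adhesion molecule, went the other way at 80.03, 77.67 and 75.23 against 3, 3.17 and 2.49 (4.34, SE 0.06), as did NEFH (3.15).

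Among 19 neuroendocrine transcription factors, 7 passed the filter (2 only through H446-labelled libraries and 1 only through A549), with 3 at least 2-fold higher in H446-labelled libraries and 1 lower. ONECUT2 was 8.24, 7.99 and 7.87 against 0.49, 0.38 and 0.36 (2.68), and ISL1 was 3.17, 2.91 and 3 against 0.08, 0.07 and 0.09 (1.90). LHX2 was higher by 1.04. REST, the repressor of neuronal genes, was 8.61, 8.48 and 8.57 against 8.19, 7.94 and 8.38. The groups did not overlap, but the difference of 0.06 did not pass in the main limma fit. It passed after removal of a trend on GC content (0.13, adjusted p = 0.0227). In RefSeq promoters on GRCh38.p14, each 250 bases before to 50 bases after a start, the E-box CAGCTG read by neural basic helix-loop-helix factors was present in 5 of 14 promoters of these factors and in 4 of 26 of the granule and vesicle genes, against 17.9% of 35116 promoters and 17.1% of those of the genes tested. The related CAGATG was in 0 of 14 and 3 of 26, against 14.7% of all promoters and 9.98% of 14897 promoters of the genes tested. Both strands were searched.

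**Figure D2:**
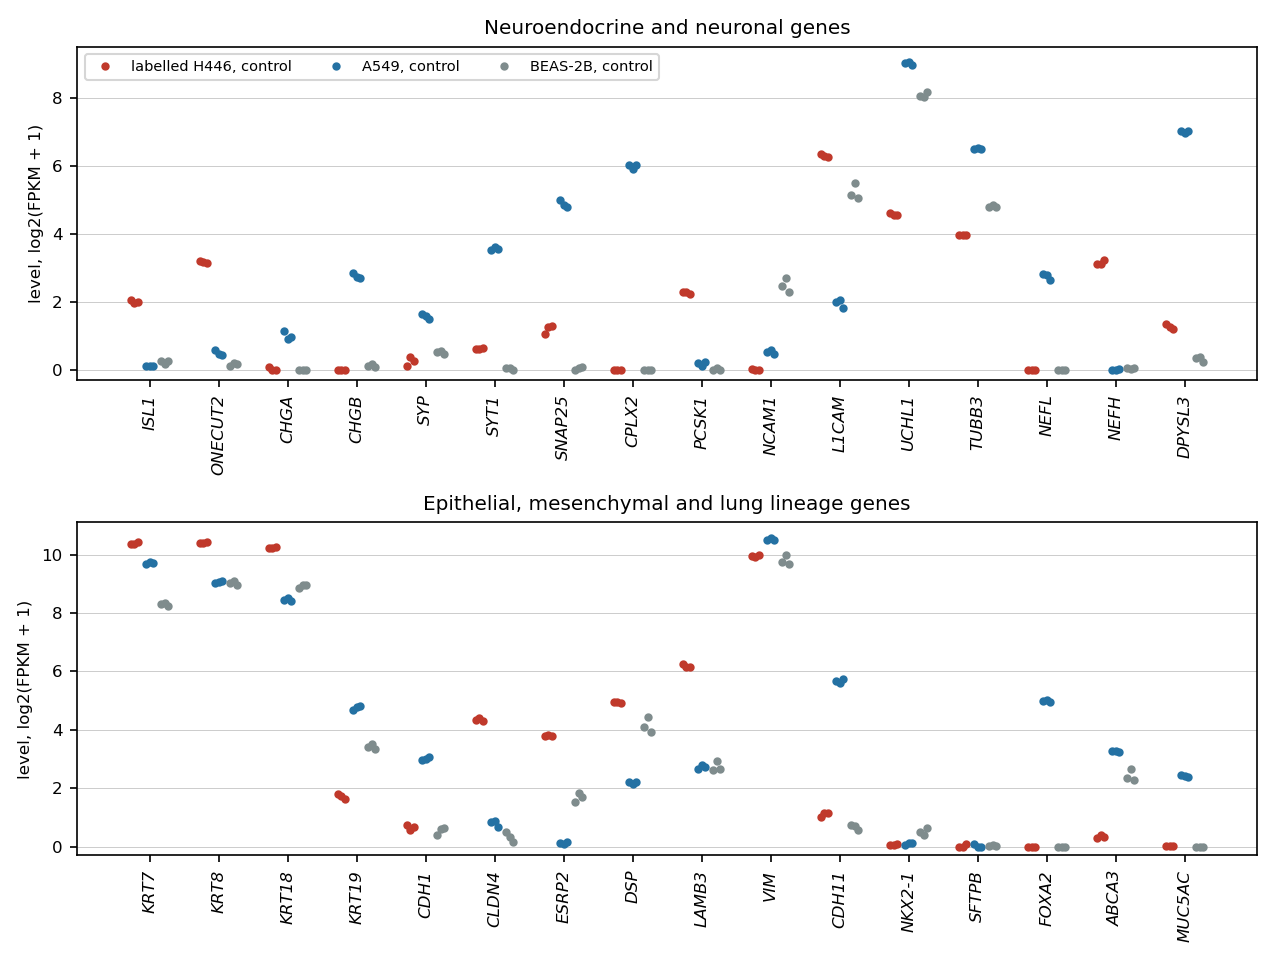
Level in each control library, log2(FPKM + 1), of neuroendocrine and neuronal genes (top) and of epithelial, mesenchymal and lung lineage genes (bottom), with 1 point per library (3 each labelled H446, A549 and BEAS-2B). CHGA and NCAM1 lie near 0 in the H446-labelled libraries, and SNAP25, CPLX2 and UCHL1 are higher in A549.

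The lung lineage of A549 was itself only partly visible. Of 30 lung and endoderm lineage genes, 9 passed the filter, 5 of them only through A549, and 6 were at least 2-fold lower in H446-labelled libraries against 1 higher, GATA6 (1.35). The 5 had to be lower, and the median was -2.41 over the members tested, -0.019 with no filter and 0.063 over members at 1 or more in all 6 libraries. NKX2-1, the master regulator of distal lung epithelium, was at most 0.1 in every library of both lines, and SFTPA1, SFTPB, SFTPC and SFTPD, which encode surfactant proteins, were at most 0.22. The endoderm factor FOXA2 was listed at 0 in H446-labelled libraries and at 30.95, 31.8 and 30.31 in A549. ABCA3, the lipid transporter of lamellar bodies, was 0.23, 0.32 and 0.26 against 8.57, 8.74 and 8.41 (-2.91). MUC5AC, a gel-forming mucin, was at most 0.02 against 4.27 to 4.5 (-2.41). SOX9 was lower by 1.51, and HOPX was listed at 0 against 8.8, 7.05 and 8.02.

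Markers of other cell types were also examined. Of 12 leukocyte genes, CD68 alone passed the filter (8.85, 7.67 and 9.17 against 26.78, 29.62 and 26.45, -1.58), while MS4A1 was listed at 0 throughout and PTPRC at no more than 0.08. The summed level of the leukocyte list was 8.18 to 10.05 in H446-labelled libraries and 27.67 to 31.2 in A549, most of it CD68. Of 12 endothelial and fibroblast genes, 5 passed the filter, 4 of them only through H446-labelled libraries, where they then had to be higher. PECAM1 (2.25), DCN (1.86), LUM (2.34) and COL3A1 (0.86) were higher in H446-labelled libraries, as was FAP, at 11.03, 10.38 and 9.84 against 0 in every A549 library. The median of the list was 2.25 over the members tested and 0.13 with no filter, with a summed level of 33.28 to 35.94 against 2.76 to 3.28. CDH5 was listed at 0 in all 6 libraries, and VWF, KDR, TEK and EMCN were at most 0.12. In bulk libraries, fewer cells of a type and less RNA per cell cannot be told apart, and the part of these markers in other results was not tested.

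The largest differences lay in genes that 1 line read strongly and the other hardly at all. FOLR1 (chr11:72189709-72196323), the folate receptor alpha, was 1145.15, 1058.9 and 1120.27 in H446-labelled libraries and 0.41, 0.21 and 0.24 in A549 (9.75, SE 0.06, adjusted p = 3.09e-15). KRT17, a keratin of basal and stressed epithelium, was 762.86, 721.33 and 792.18 against 0.09, 0.18 and 0.14 (9.38). CGA (chr6:87085498-87095106), the alpha subunit shared by the glycoprotein hormones, was 338.97, 320.27 and 346.9 against 0, 0.11 and 0.22 (8.25). In each of these genes the groups were separated by more than the spread of either. SPINK6, a protease inhibitor of skin, and PRSS21, the serine protease testisin, were listed at 0 in A549 and averaged 297.7 and 112.4 in H446-labelled libraries (SD 11.3 and 5.3, n = 3). CXCR4, the receptor of CXCL12, averaged 143.7 (SD 2.14) against 0.117 (SD 0.0231). MT1E, a metallothionein, averaged 144.6 (SD 12.1) against 0.183 (SD 0.00577), although the 4 other metallothionein genes tested were lower in H446-labelled libraries, MT2A by 0.72 and MT1X by 0.55. That list was added after the value of MT1E was seen, and its near-identical members may share reads.

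In the other direction, ALDH1A1 (chr9:72900671-72953053), a retinaldehyde dehydrogenase, was 0.03, 0 and 0 in H446-labelled libraries and 1523.47, 1525.14 and 1539.19 in A549 (-10.57, SE 0.03, adjusted p = 2.72e-17). KRT81, a hair keratin, was 0.8, 0.91 and 0.5 against 1636.53, 1722.18 and 1705.06 (-9.93). SPP1, which encodes the matrix protein osteopontin, was listed at 0, 0 and 0.05 against 248.9, 244.42 and 237.81 (-7.91). All 3 were also at 0.107 or less on average in BEAS-2B controls. The matrix genes VCAN, a proteoglycan, and COL5A2, a collagen chain, were lower by 6.60 and 6.51. TBXT, the notochord factor brachyury, was listed at 0 in H446-labelled libraries and in BEAS-2B and at 78.91, 82.45 and 80.86 in A549. CXCL5, AKR1B10, CXCL1 and CCL2 completed the 10 largest and are given with their families below.

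Genes whose loss marks lung cancers separated the lines in opposite ways. CDKN2A (chr9:21967752-21995324), which encodes an inhibitor of CDK4 and CDK6, was 215.82, 212.28 and 212.94 in H446-labelled libraries and listed at 0 in every A549 control (adjusted p = 1.3e-15). Its neighbour CDKN2B was 27.43, 26.8 and 26.35 against 0, 0 and 0. MTAP, the salvage enzyme encoded beside them at -165 kb, was 30.4, 33.11 and 31.79 against 3.36, 3.15 and 3.67 (2.90). These 3 were the only ones of the 9 genes tested within 2500000 bases of CDKN2A that were higher in H446-labelled libraries. KLHL9 at -638 kb and DMRTA1 at 479 kb were lower, by 0.26 and 0.65, and A549 read both, at 13.95 to 15.04 and at 2.94 to 3.52.

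STK11 (chr19), the kinase LKB1, was lower in H446-labelled libraries. It was 0.2, 0.21 and 0.36 in H446-labelled libraries and 15.15, 14.98 and 14.93 in A549 (-3.67, SE 0.07, adjusted p = 3.71e-12), with 22.5 on average in BEAS-2B. A549 is known for a mutated STK11, and the RNA level does not show whether the gene works. Of the nearest listed genes, LOC102725180, at -36.9 kb, was hardly read in either line, averaging 0.467 against 0.293, and CBARP, at 22.5 kb, was 3.96, 2.92 and 2.63 against 1.22, 1.52 and 1.77 (0.73). The other genes of the window ranged from EFNA2, at 78.4 kb, which averaged 0.0767 against 0.28, to genes read strongly in both lines. SBNO2, at -98.1 kb, was 25.42, 24.79 and 23.11 against 18.67, 19.48 and 19.57 (0.33), and ATP5F1D, at 36 kb, was 118.52, 123.86 and 118.97 against 50.01, 58.15 and 54.15 (1.14). CIRBP, at 63.6 kb (-1.41), GAMT, at 191.2 kb (-0.90), GRIN3B, at -205.4 kb (-0.88), and GPX4, at -101.8 kb (-0.22), were lower. The other neighbours tested were higher in H446-labelled libraries.

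**Figure D3:**
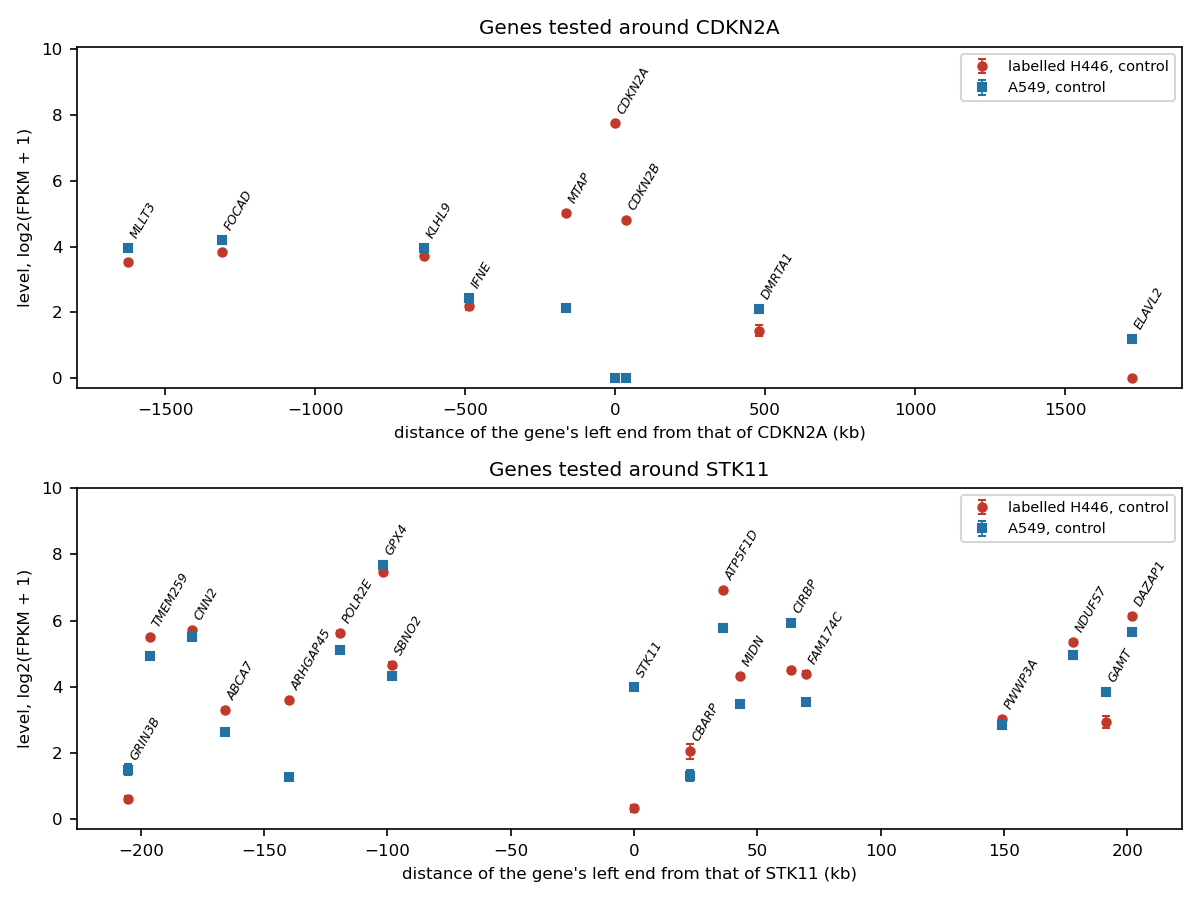
Mean level in control libraries labelled H446 (circles) and A549 (squares), log2(FPKM + 1) with the SD of 3 libraries, of the genes tested around CDKN2A (top) and STK11 (bottom), placed by the distance of each gene's lower coordinate in kb. CDKN2A and CDKN2B are at 0 in A549 between neighbours that are read, and STK11 is near 0 in H446-labelled libraries between neighbours that are read.

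The list of 22 SWI/SNF subunits and lung cancer suppressors that holds STK11 was mixed, with 8 higher and 9 lower among 20 tested, 2 at least 2-fold each way, and a median of 0.038 (0.023 without H446-labelled replicate 1). SMARCA4, the ATPase of the chromatin remodelling complex, was 24.21, 24.27 and 24.11 against 6.09, 6.08 and 5.69 (1.86). SMARCC1 was higher by 1.29 and SMARCD3 lower by 2.33. RB1 was 22.37, 21.87 and 21.62 against 22.84, 18.8 and 21.89 (0.05, adjusted p = 0.428), with overlapping groups, and was thus read in both lines.

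G1 regulators were mostly higher in H446-labelled libraries. Of 26 listed, MTAP among them, 25 were tested, 18 were higher (11 by at least 2-fold) and 5 lower (1 by at least 2-fold). CDKN2A and CDKN2B passed the filter only through H446-labelled libraries and had to be higher. The median was 0.64 over the members tested and 0.44 over members at 1 or more in all 6 libraries. Of all genes tested, 43.4% were higher and 13.9% by at least 2-fold. CCNE2, a cyclin of S phase entry, was 25.19, 23.18 and 23.4 against 1.36, 1.46 and 1.55 (3.34). CDK2 (1.75), E2F1 (1.95), E2F2 (2.30) and E2F7 (2.28) moved with it. Of the inhibitors, CDKN1C was 24.29, 23.35 and 22.15 against 1.71, 2.2 and 1.52 (3.12) and CDKN2C was higher by 2.04, while CDKN1A was lower, as given with the p53 targets. E2F5 was lower by 1.08. CDK4, the partner of D cyclins, differed by 0.01 and did not pass.

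Targets of the p53 pathway, which act in growth arrest, repair and cell death, were mostly lower in H446-labelled libraries. Of 29 genes on the list, 28 were tested, 1 of them passing the filter only through A549. Of the 28, 25 were lower, 12 of them by at least 2-fold, with a median of -0.87. Among all genes tested, 44.8% were lower and 15.1% by at least 2-fold. FDXR was 4.05, 3.46 and 3.77 against 45, 46.95 and 42.37 (-3.27), and the death receptor EDA2R 0.36, 0.39 and 0.49 against 15.81, 14.31 and 13.9 (-3.47). MDM2, which degrades p53, was lower by 1.13. CDKN1A, the inhibitor p21, differed less, at 75.72, 72.81 and 71.66 against 100.68, 106.25 and 102.82 (-0.49), and this difference did not pass when all 18 libraries were fitted together (adjusted p = 0.159). FAS, a death receptor, was higher by 1.0. POLH, a translesion polymerase, was 0.21 higher, which failed the test without H446-labelled replicate 1, H446-labelled replicate 3, A549 replicate 1 or A549 replicate 2 (0.14 to 0.20, adjusted p 0.0599 to 0.095) and over all 18 libraries (adjusted p = 0.0517).

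NRF2 target genes were also mostly lower in H446-labelled libraries. NRF2, encoded by NFE2L2, is released from KEAP1 under oxidative stress and binds antioxidant response elements, whose core reads TGACNNNGC. Of 34 targets, 33 were tested, 25 were lower (13 by at least 2-fold) and 4 higher, with a median of -0.73. The filter was passed only through A549 by 2 of the 33, which had to be lower. Over all genes tested the shares were 44.8% lower and 15.1% by at least 2-fold. AKR1B10, AKR1C1, AKR1C2 and AKR1C3 are also on the aldo-keto reductase list. The core was present on either strand in 9 of 26 RefSeq promoters of these targets (34.6%, 22 genes matched), against 13.3% of 35116 promoters and 14.3% of those of the genes tested. Stretches of the promoters of 5 targets, chosen because the genes differed between the lines to unequal degrees, are shown with the core in capitals, 5′ to 3′ in the direction of the gene. PGD and ME1 were at least 2-fold lower in H446-labelled libraries, TXNRD1 was lower by less, GCLM did not pass the test and CBR1 was higher.
PGD, chr1:10398838-10398896, plus strand: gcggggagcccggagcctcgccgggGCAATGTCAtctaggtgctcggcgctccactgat
ME1, chr6:83431155-83431213, minus strand: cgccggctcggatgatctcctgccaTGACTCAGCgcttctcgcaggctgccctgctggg
TXNRD1, chr12:104215655-104215713, plus strand: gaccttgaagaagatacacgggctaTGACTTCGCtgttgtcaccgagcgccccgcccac
GCLM, chr1:93909431-93909489, minus strand: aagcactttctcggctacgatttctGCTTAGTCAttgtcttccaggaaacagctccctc
CBR1, chr21:36069840-36069898, plus strand: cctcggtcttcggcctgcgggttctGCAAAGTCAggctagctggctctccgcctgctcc
The core shown began 201, 137, 99, 34 and 159 bases before the start in PGD, ME1, TXNRD1, GCLM and CBR1, and lay on the opposite strand in PGD, GCLM and CBR1. ME1 and TXNRD1 held further matches.

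The differences of these 5 genes ran from -1.96 to 0.57, and binding of NRF2 to their promoters was not tested. PGD, an enzyme of the pentose phosphate pathway, was 125.07, 122.71 and 122.99 against 488.43, 495.49 and 469.84 (-1.96). ME1, the malic enzyme, was 29.77, 27.76 and 28.28 against 70.48, 67.27 and 68.86 (-1.24). TXNRD1, the thioredoxin reductase, was 304.83, 304.15 and 310.5 against 495.34, 499.94 and 498.54 (-0.70). GCLM, a subunit of the enzyme that makes glutathione's precursor, overlapped between the lines at 21.56, 21.36 and 21.04 against 19.89, 20.7 and 21.69 (0.04, adjusted p = 0.401).

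NQO1, the quinone reductase often used to read NRF2 activity, was 212.28, 205.63 and 219.51 in H446-labelled libraries and 516.49, 525 and 498.53 in A549 (-1.27, SE 0.03), against 53 on average in BEAS-2B. H446-labelled libraries thus lay between the other lines. The drug transporter ABCC2 was 1.11, 1.22 and 1.17 against 82.74, 77.75 and 78.98 (-5.22), and UGDH, SRXN1, TRIM16L and OSGIN1 were lower by 2.75, 2.04, 2.17 and 2.22. The 4 targets higher in H446-labelled libraries were FTH1 (8081.27, 7398.73 and 8087.13 against 4241.49, 4377.04 and 3966.17, 0.90), PRDX1 (0.82), CBR1 (72.99, 77.97 and 80.88 against 50.73, 49.25 and 55.11, 0.57) and TXN (0.21). FTH1 encodes a ferritin chain with many processed copies in the genome, which may share its reads. Of the 9 regulators, 6 were lower and 3 higher. NFE2L2 was 53.45, 51.62 and 51.49 against 96.12, 91.76 and 95.02 (-0.84) and KEAP1 8.66, 8.55 and 9.4 against 15.06, 16.23 and 15.67 (-0.76).

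The detoxifying enzyme families carried some of the steepest differences. AKR1B10 (chr7:134527567-134541412) was 0.23, 0.18 and 0.39 against 485.88, 483.88 and 487.12 (-8.59, SE 0.06). Of 12 aldo-keto reductases, 9 were tested, 3 of them passing the filter only through A549, which had to be lower. Of the 9, 7 were lower (4 by at least 2-fold) and 2 higher, AKR1A1 (0.84) and AKR7A2 (0.57). The shares over all genes tested were 44.8% lower and 15.1% by at least 2-fold. AKR1C1, AKR1C2 and AKR1C3 were high in both lines, 149.05, 146.79 and 141.22 against 225.95, 230.44 and 205.49 for AKR1C1 (-0.59), and were at most 2.6 on average in BEAS-2B. These copies are close in sequence and the split of reads between them is uncertain. Of 19 aldehyde dehydrogenases, 15 were tested, with 7 lower (5 by at least 2-fold), 3 higher and a median of -0.12 (-0.040 with no filter, -0.080 without H446-labelled replicate 3 and -0.069 without A549 replicate 1), so that ALDH1A1 stood far from its family. ALDH3A1 was 53.66, 49.59 and 53.17 against 664.84, 661.1 and 644.76 (-3.63).

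Chemokine and cytokine genes gave a median of -3.76, the lowest of the lists with 1 added to each value. With 0.1 added the lung and endoderm list was lower (-4.56 against -4.00), and with no filter the chemokine median was -2.17. Of 23, 19 were tested, 5 of them passing only through A549, and 18 were lower in H446-labelled libraries, 16 of them by at least 2-fold. The neutrophil attractants CXCL5 (0.03, 0 and 0 against 623.16, 603.75 and 614.86, -9.25) and CXCL1 (4.6, 4.7 and 4.02 against 718.3, 686.76 and 666.62, -6.99) led. CXCL8 was 11.85, 11.36 and 12.79 against 566.15, 522.29 and 532.08 (-5.38). CCL2, which attracts monocytes, was 0.54, 0.86 and 0.21 against 169.78, 158.16 and 157.3 (-6.75). IL6, IL11 and LIF, cytokines that signal through gp130, were lower by 3.88, 5.6 and 4.58. The NF-kB genes on the list were also lower, RELB by 3.18 and NFKB2 by 1.85. CCL5 alone was higher, 74.8, 72.06 and 69.08 against 1.79, 1.78 and 1.88 (4.69, SE 0.05).

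**Figure D4:**
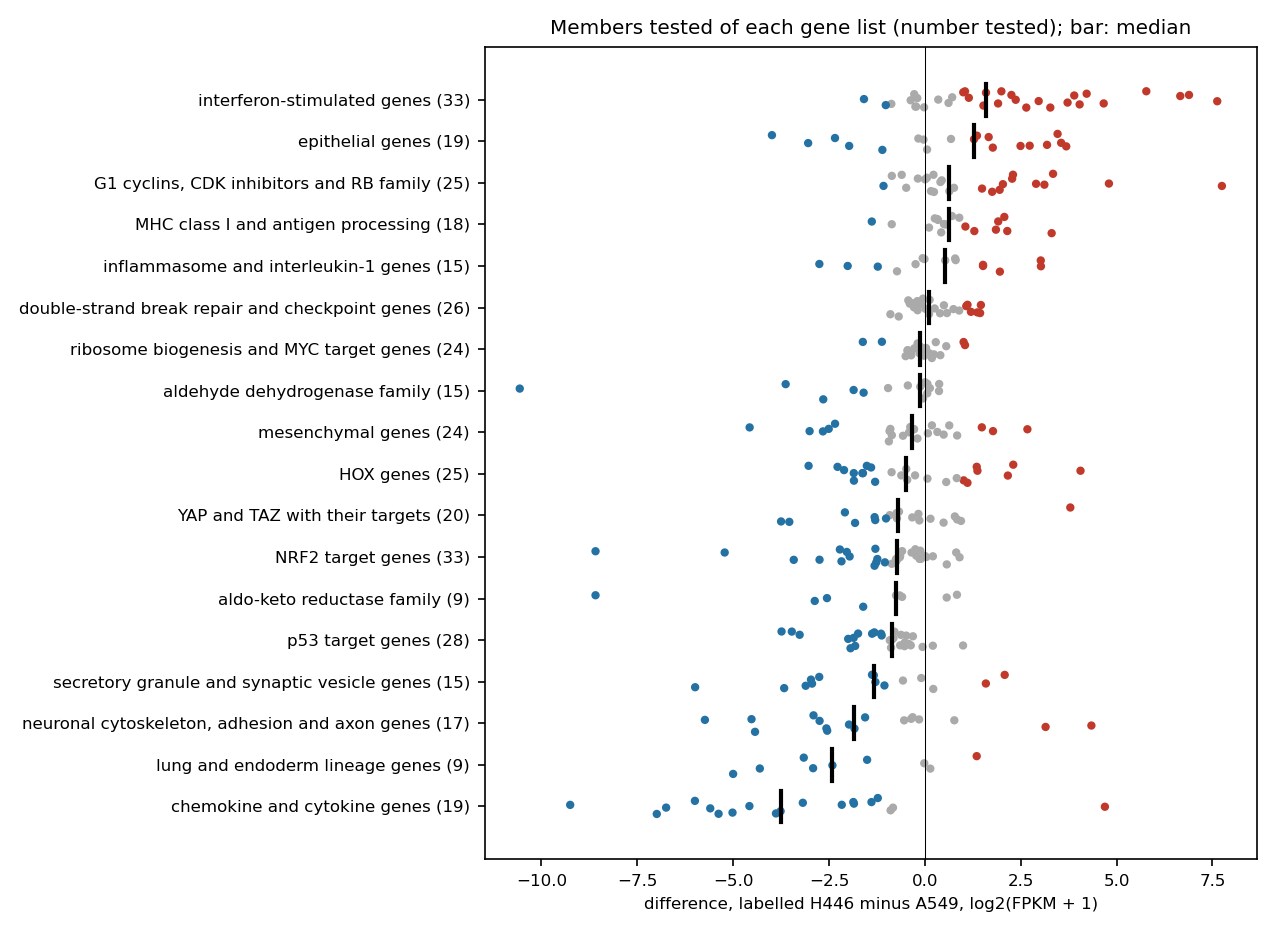
Difference between control libraries labelled H446 and A549, log2(FPKM + 1), of the members tested of 18 gene lists, 1 point per gene, with a bar at the median (red, at least 2-fold higher in H446-labelled libraries; blue, at least 2-fold lower; grey, neither). The median runs from -3.76 for chemokine and cytokine genes to 1.59 for interferon-stimulated genes.

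Interferon-stimulated genes went the other way. This list was added after OASL and BST2 had been seen among the largest differences, so that its count is a description. Of 34 genes, 33 were tested (7 passed the filter only through H446-labelled libraries), 24 were higher (21 by at least 2-fold) and 8 lower, with a median of 1.59. BST2, the tetherin that holds back budding virus, was 298.12, 279.32 and 306.03 against 0.53, 0.51 and 0.45 (7.62), and OASL was 283.78, 266.63 and 269.92 against 1.26, 1.36 and 1.33 (6.89). ISG15, a ubiquitin-like modifier, was 1156.99, 1019.89 and 1120.2 against 9.99, 12.32 and 7.75 (6.66), and its ligase HERC5 was higher by 5.77. IRF9 and IRF7, factors that carry the interferon signal, were lower in H446-labelled libraries, by 1.59 and 1.02.

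MHC class I genes were also higher in H446-labelled libraries. Of 19 genes of class I and antigen processing, 18 were tested, 16 were higher (7 by at least 2-fold) and 2 lower. HLA-B was 248.74, 253.04 and 257.22 against 22.77, 27.12 and 24.34 (3.31), B2M, the light chain of class I, was 3673.55, 3474.99 and 3798.78 against 827.02, 856.35 and 782.82 (2.15), and NLRC5, the activator of these genes, was higher by 1.85. PSMB9 (-0.86) and IRF1 (-1.38) were lower. HLA genes are close in sequence, and the split of reads between them is uncertain.

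The inflammasome, a complex that matures interleukin-1 and that the study followed through radiation injury of the lung, was also compared. NLRP3, its sensor, was listed at 0, 0 and 0 in H446-labelled libraries and at 0.04, 0.07 and 0.04 in A549. Of 20 genes, 15 were tested, 8 higher (5 by at least 2-fold) and 5 lower (3 by at least 2-fold), against 43.4% (13.9%) and 44.8% (15.1%) of all genes. CASP1, the protease it activates, was 19.76, 21.4 and 22.9 against 2.08, 1.39 and 1.79 (3.03), and IL1B, a substrate of CASP1, was 14.84, 14.2 and 14.4 against 1.22, 0.8 and 0.73 (3.02). The receptor IL1R1 was opposite, 0.33, 0.45 and 0.51 against 8.99, 8.66 and 8.22 (-2.75). PYCARD, the adaptor ASC, was 1.25, 0.72 and 0.61 against 0 in every A549 library and 31.7 on average in BEAS-2B. NEK7 was higher by 1.96 and CARD8 lower by 2.01.

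Both lines read keratins strongly, and epithelial genes differed in both directions. Of 30 epithelial genes, 19 were tested (3 passed the filter only through H446-labelled libraries and 2 only through A549), 11 higher (10 by at least 2-fold) and 6 lower (5 by at least 2-fold). The median was 1.28 over the members tested and 0.16 with no filter. KRT18 was 1187.09, 1203.11 and 1230.07 against 347.89, 368.87 and 341.89 (1.77), with KRT8 higher by 1.36 and KRT7 by 0.68. DSP, a protein of desmosomes, was 29.63, 30.01 and 29.04 against 3.69, 3.41 and 3.69 (2.73), and LAMB3, a chain of a basement membrane laminin, was 74.87, 70.46 and 70.75 against 5.27, 5.94 and 5.7 (3.46). CDH1, the E-cadherin of adherens junctions, was low in H446-labelled libraries, 0.66, 0.49 and 0.61 against 6.74, 6.98 and 7.44 (-2.34). KRT19, CLDN2 and OCLN were lower by 3.04, 3.99 and 1.97, and CLDN4 and ESRP2 higher by 3.55 and 3.69. EPCAM did not pass the filter at 1.29, 0.99 and 1.04 against 0.55, 0.49 and 0.42, and GRHL2 was at most 0.02.

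The E-box CAGGTG, the site read by ZEB and SNAI repressors of epithelial genes, was present on either strand in 12 of 23 RefSeq promoters of the epithelial list (52.2%, 10 of 15 genes matched), against 20.6% of 35116 promoters and 18.3% of those of the genes tested. One stretch each from the promoters of 3 genes is shown with the E-box in capitals. Whether the site is used in these cells was not tested.
DSP, chr6:7541561-7541616, plus strand: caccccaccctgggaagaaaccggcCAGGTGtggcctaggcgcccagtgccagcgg
LAMB3, chr1:209652613-209652668, minus strand: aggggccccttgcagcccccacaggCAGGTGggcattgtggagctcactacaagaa
OCLN, chr5:69492489-69492544, plus strand: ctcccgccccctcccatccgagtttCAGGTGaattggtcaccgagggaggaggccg
The E-box shown began 85, 218 and 33 bases before the start in DSP, LAMB3 and OCLN, and DSP and OCLN held further matches. DSP and LAMB3 were higher in H446-labelled libraries, and OCLN, a tight junction protein, was 2.12, 2.13 and 2.54 against 11.89, 11.28 and 12.25. Among the repressors, ZEB1 was 9.41, 9.01 and 9.4 against 13.05, 12.4 and 12.59 (-0.41), ZEB2 was lower by 0.38 and SNAI2 by 0.19.

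Mesenchymal genes were split. Of 27, 24 were tested, 8 higher (3 by at least 2-fold) and 15 lower (5 by at least 2-fold), with a median of -0.34. All genes tested gave 43.4% higher (13.9% by at least 2-fold) and 44.8% lower (15.1%). VIM, the intermediate filament vimentin, was high in both, 984.51, 971.62 and 1012.86 against 1451.27, 1523.29 and 1437.79 (-0.57). CDH11 was 1.01, 1.22 and 1.23 against 49.78, 47.84 and 52.79 (-4.57), and COL6A1 and COL6A2 were lower by 2.51 and 3.01. LOX, which cross-links collagen, was higher by 2.67. YAP1, the Hippo pathway coactivator, differed by 0.15, a difference that did not pass after quantile normalization. Of 20 genes of YAP, TAZ and their targets, 14 were lower (7 by at least 2-fold) and 6 higher, with a median of -0.70. ANKRD1 was 2.36, 2.46 and 1.52 against 38.93, 39.91 and 42.72 (-3.75) and TGFB2 lower by 3.54, while F3, the tissue factor, was 45.66, 44.92 and 43.78 against 2.26, 2.51 and 2.15 (3.79).

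Growth factor receptors and EGFR ligands were compared as 1 list. NRG1, the ligand of ERBB3 and ERBB4, was 1.42, 1.43 and 1.93 against 59.66, 55.72 and 64.61 (-4.56). EREG, a ligand of EGFR, was 9.55, 8.89 and 8.61 against 261.76, 245.88 and 253.38 (-4.67), and HBEGF was lower by 2.60, while AREG overlapped between the lines (-0.05). EGFR was 25.45, 25.34 and 24.51 against 64.71, 58.27 and 65.76 (-1.29), and FGFR1 and AXL were lower by 1.64 and 1.31. Over the 23 genes, 17 were tested, 10 lower (7 by at least 2-fold) and 5 higher, none of these by 2-fold. In the Notch pathway, 8 of 14 genes tested were higher (4 by at least 2-fold) and 6 lower (3 by at least 2-fold). The Notch median was 0.60 over the members tested and -0.11 with no filter. For both lists the shares over all genes tested were 43.4% higher and 44.8% lower, or 13.9% and 15.1% by at least 2-fold. The ligand JAG1 was 1.89, 2.01 and 2.31 against 28.28, 28.8 and 30.46 (-3.30) and the ligand JAG2 was higher by 2.14. The target HES4 was 42.1, 36.39 and 37.68 against 8.53, 6.77 and 5.98 (2.30).

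MYC was 84.99, 80.05 and 82.76 in H446-labelled libraries and 47.1, 47.7 and 44.59 in A549 (0.82, SE 0.04), and MYCN and MYCL were at most 0.37 in both. Among 12 genes of the MYC network, 10 were tested, 7 higher and 3 lower, against 43.4% and 44.8% of all genes tested. MXD1, an antagonist, was 1.18 higher. The 24 ribosome biogenesis and MYC target genes were close to even, 8 higher and 12 lower, 2 by at least 2-fold each way, with a median of -0.13 (-0.077 at equal totals). FBL, the rRNA methyltransferase fibrillarin, was 161.68, 159.31 and 165.49 against 499.53, 521.34 and 479.6 (-1.62), and GNL3 and SRM were higher by 1.05 and 1.01.

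In the BCL2 family of 16, 14 were tested, 8 lower (5 by at least 2-fold) and 5 higher (1 by at least 2-fold). The shares over all genes tested, here and for the repair genes below, were 44.8% lower (15.1% by at least 2-fold) and 43.4% higher (13.9%). The survival gene BCL2A1 was listed at 0 in H446-labelled libraries and at 32.3, 36.03 and 30.45 in A549. BCL2L1, which encodes BCL-XL, was 54.39, 56 and 55.63 against 160.3, 165.27 and 160.78 (-1.53), and BCL2 was 3.81, 3.43 and 3.69 against 1.19, 1.49 and 1.95 (0.88). The death-promoting BCL2L11 was higher by 1.41 and BBC3 lower by 2.0. Of 26 double-strand break repair and checkpoint genes, all tested, 13 were higher (6 by at least 2-fold) and 9 lower, none by 2-fold. CHEK2 (1.44), RNF168 (1.46), WEE1 (1.37) and PALB2 (1.11) were among those higher. SLFN11, which blocks stressed replication forks, was 8.11, 8.34 and 8.59 against 2.93, 3.18 and 3.08 (1.2), and ATM was lower by 0.90.

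HOX genes, which record position along the body axis, differed in both directions. Of 39, 25 passed the filter, 4 only through H446-labelled libraries, which had to be higher, and 7 only through A549, which had to be lower. Of the 25, 9 were higher (7 by at least 2-fold) and 15 lower (10 by at least 2-fold). The median was -0.49 over the members tested and -0.094 over members at 1 or more in all 6 libraries. HOXC10 was 30.67, 29.13 and 31.09 against 0.69, 0.91 and 1.05 (4.06), and HOXA11, also from the 5′ end of its cluster, was higher by 2.30. HOXC11 was 3.7, 3.31 and 3.44 against 0 in every A549 library. HOXB8 was 0.18, 0.22 and 0.08 against 8.75, 8.26 and 8.44 (-3.03), and HOXB3 and HOXD8 were lower by 2.28 and 2.11. Of 24 cancer-testis antigen genes, 5 passed the filter, 1 only through H446-labelled libraries and 2 only through A549, whose directions the filter fixed. CT83 was 83.74, 80.67 and 84.31 against 0, 0 and 0.15 (6.32), MAGEA1 was higher by 2.46, XAGE1A was listed at 0 against 31.19, 28.94 and 26.8, and MAGEB2 and PRAME were lower by 1.78 and 1.10.

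The same contrast was read in the irradiated libraries (10 Gy), which the control comparison did not use. Of 12440 genes tested there, 1608 were at least 2-fold higher in H446-labelled libraries (12.9%) and 2017 lower (16.2%). Of the 3556 genes at least 2-fold different in controls and tested in both, 3549 had the same sign after irradiation and 2949 (82.9%) were again at least 2-fold different. Both contrasts come from the same lines, and whether a difference changed with irradiation was not tested. Over the members tested in both, the median of the p53 targets was -0.87 in controls and -1.90 in irradiated libraries. CDKN1A differed by -0.49 and -2.16, with 72.44, 63.57 and 65.85 in irradiated H446-labelled libraries against 317.9, 293.77 and 297.43 in irradiated A549, and MDM2 by -1.13 and -3.0. The median of the NRF2 targets was -0.73 and -1.20, with ALDH3A1 outside that list at -3.63 and -5.97. The median of the YAP and TAZ list was -0.70 and 0.10, and CCN1 and CCN2, secreted matrix proteins and targets of YAP, changed their order. CCN1 was 118.4, 114.14 and 120.45 against 191.12, 187.67 and 186.39 in controls (-0.67) and 236.74, 236.89 and 247.13 against 38.29, 43.86 and 44 after irradiation (2.49). The difference in MYC was 0.82 and 1.95.

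**Figure D5:**
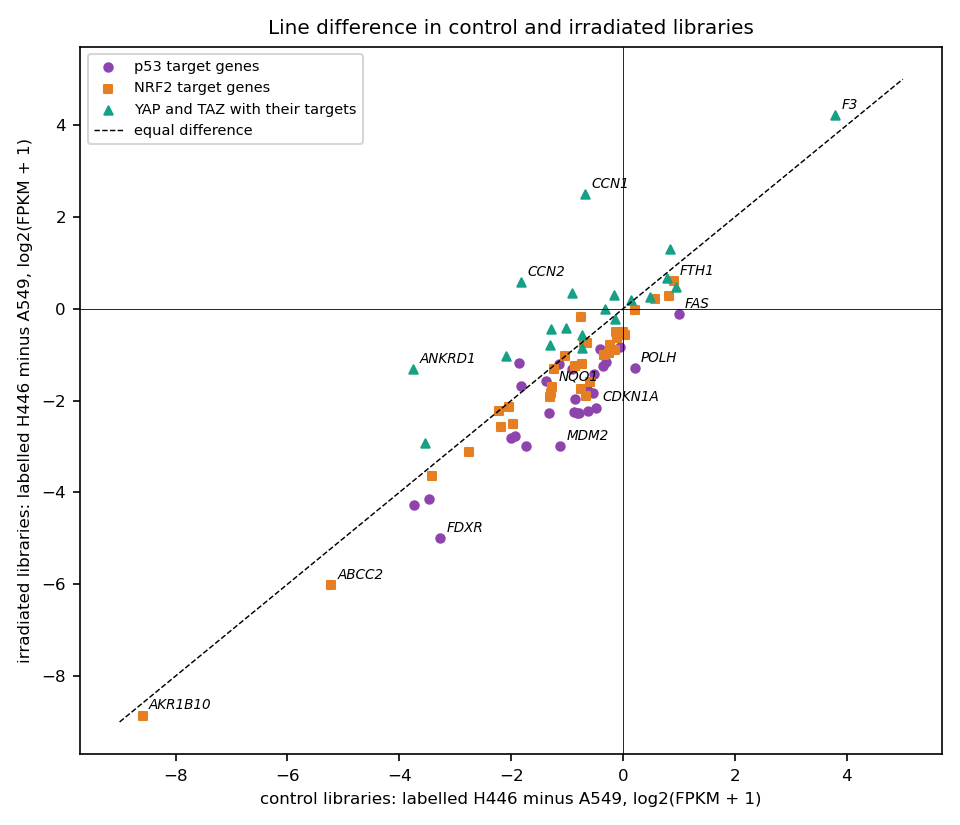
Difference between libraries labelled H446 and A549 in irradiated libraries (vertical axis) against control libraries (horizontal axis), both in log2(FPKM + 1), for members of the p53, NRF2 and YAP and TAZ lists, 1 point per gene, with a dashed line at equal difference. CCN1 and CCN2 lie above 0 on the vertical axis and below 0 on the horizontal axis, and MDM2, CDKN1A and FDXR lie below the line.

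Differences were not spread evenly over the chromosomes. The median was highest on chromosome 9 (0.52 over 517 genes tested), where 33.3% of genes were at least 2-fold higher in H446-labelled libraries against 13.9% of all genes, followed by chromosome 1 (0.35, 1238 genes) and chromosome 3 (0.35, 689 genes). It was lowest on chromosomes 2 (-0.44, 839 genes), 17 (-0.44, 769 genes) and 14 (-0.42, 414 genes). On chromosome 20, 28.5% of 326 genes were at least 2-fold lower, against 15.1% of all genes. In the irradiated libraries these medians were 0.55, 0.38, 0.33, -0.39, -0.49 and -0.42 for chromosomes 9, 1, 3, 2, 17 and 14. Genes of 1 chromosome are not replicates of each other.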

How the data were processed

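Poly(A) RNA of each library was sequenced by the authors as single-end reads on a BGISEQ-500. The authors deposited 1 table of normalized values for 18475 genes by Entrez identifier, taken here as FPKM. The unit was inferred from the values, since no source names it. The submitters' processing notes name HISAT2 2.0.4, Bowtie2 2.2.5, RSEM 1.2.12 and hg38 without their roles. Depth is unknown, since no counts were used, so no counting interval is given. RefSeq (GRCh38.p14) gave names and positions for 18181 genes by Entrez number.

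The filter on low values kept a gene when 3 or more of the 6 control libraries reached an FPKM of 1. These genes were tested on log2(FPKM + 1) with limma 3.58.1 (lmFit, eBayes with trend) in R 4.3.3, at a Benjamini-Hochberg adjusted p of 0.05. With 3 libraries a group, an exact permutation test of 1 gene cannot pass this threshold. The 1 added before the logarithm understates differences of low genes. The members and gene lists were chosen with earlier results of these data known. No set test was run, and lists are described by counts and medians. Genes named by rule were the 10 largest differences each way among genes that passed, did not overlap and averaged at least 10 in the higher line (XIST, Y-linked genes and unnamed identifiers left out), the 4 largest of each list with up to 2 called in the other direction, and fixed lineage, cell cycle and inflammasome genes. Other members were named after their values were seen, and some are not reported here. Replicate numbers did not pair libraries (correlation of deviations -0.08, -0.03 and 0.08 for numbers 1, 2 and 3). Replicates shared at most 3.22% of equal values, so none was a copy.

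On simulated data with 200 genes changed among 12404, 99% of changes of 1 and 100% of changes of 2 on the log2 scale were recovered, with 10 other calls, and 0 calls without change. Alternatives were quantile normalization, equal totals, no trend, no filter, a value of 1 in all 6 libraries, a pseudocount of 0.1, a replicate block, all 18 libraries, each library left out, removal of a loess trend (span 0.5) on GC content (17850 genes), irradiated libraries and an adjusted p under 0.01.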

Additional observations from a re-analysis of the deposited data

Results flagged for a closer look

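In 17 of the 480 named genes and list members tested in both conditions, the 3 H446-labelled libraries all lay on 1 side of the 3 A549 libraries in controls and all on the other side after irradiation, which is 3.5% against 3.3% of all genes tested in both (405 of 12264), a share near the background. Of these genes, 16 are given here. The difference between the conditions was not tested. In the YAP and TAZ list, CCN1 went from -0.67 in controls to 2.49 in irradiated libraries (H446 minus A549, log2(FPKM + 1)), CCN2 from -1.82 to 0.59, AMOTL2 from -0.92 to 0.33 and TEAD1 from -0.17 to 0.30. MAFF, a small partner of NRF2, went from -0.53 to 0.78, and SQSTM1, the autophagy receptor p62, from 0.12 to -0.12. SNAI2, a repressor of epithelial genes, went from -0.19 to 0.60, and the receptors EPHA2 and IGF1R from -0.53 to 0.28 and from 0.09 to -0.36. MCL1, a survival gene, went from -0.42 to 0.44, and DPF2 from -0.40 to 0.24. The nucleolar genes NOP58, DKC1 and WDR12 went from -0.14 to 0.44, from -0.36 to 0.15 and from -0.14 to 0.13. The aldehyde dehydrogenases ALDH3A2 and ALDH5A1 went from 0.13 to -0.66 and from 0.06 to -0.27.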

How the results depend on the processing

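Directions and calls held under most settings, and no setting moved the median of all genes by over 0.1. With the replicate number as a block, 5359 genes were higher and 5551 lower, against 5378 and 5552, with 1719 and 1879 by at least 2-fold, and no call of a named gene changed. The numbers did not pair the libraries. Leaving out 1 library at a time gave 5228 to 5322 higher and 5434 to 5482 lower, with 1702 to 1735 and 1872 to 1886 by at least 2-fold, a median of -0.62 to -0.45 for the NRF2 regulators and of -1.88 to -1.79 for the neuronal genes, and of -0.17 to -0.069 for the aldehyde dehydrogenases. Counts of higher and lower genes were 5330 and 5573 after quantile normalization, 5621 and 5292 at equal totals, 6050 and 6735 with no filter, 5146 and 5337 over all 18 libraries, 5447 and 5426 after removal of the GC trend, and 5062 and 5262 at an adjusted p under 0.01.

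A filter of at least 1 in all 6 libraries drops genes near 0 in 1 line. It gave 1213 genes at least 2-fold higher and 1046 lower, which turned the order of these counts (1719 and 1879), and medians of -0.57 (granule and vesicle), -0.45 (neuronal), 0.98 (epithelial), 0.063 (lung lineage), -0.62 (aldo-keto reductases), -0.047 (aldehyde dehydrogenases), 0.44 (G1), -0.19 (BCL2 family), -0.39 (receptors and ligands), -3.18 (chemokines), 0.68 (cancer-testis, reversed) and -0.094 (HOX). With no filter they were -0.98 (granule and vesicle), -0.52 (neuronal), 0.45 (MYC family), -0.11 (Notch), 0.16 (epithelial), -0.019 (lung lineage), -0.62 (aldo-keto reductases), -0.040 (aldehyde dehydrogenases), -0.12 (BCL2 family), 0.10 (inflammasome), -2.17 (chemokines), 0.019 (cancer-testis), -0.23 (HOX) and 0.13 (endothelial and fibroblast). A pseudocount of 0.1 gave -3.08 (granule and vesicle), -2.62 (neuronal), 0.77 (Notch), -4.56 (lung lineage), -0.99 (p53), -4.00 (chemokines) and 3.63 (endothelial and fibroblast). Quantile normalization gave -1.15 (granule and vesicle), -1.89 (neuronal), -0.17 (ribosome), 1.16 (epithelial) and -1.17 (cancer-testis). Equal totals gave -1.79 (neuronal), -0.077 (ribosome), -0.68 (NRF2 targets), -0.26 (BCL2 family) and 0.16 (repair). Removal of the GC trend gave -1.78 (neuronal), -0.077 (ribosome), -2.49 (lung lineage), -0.69 (NRF2 targets), -0.62 (NRF2 regulators) and 0.18 (repair).

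The irradiated libraries, over the members that passed the filter there, gave 0.30 (neuroendocrine factors), -2.29 (neuronal), 0.46 (MYC family), 0.10 (ribosome, reversed), 0.13 (Notch), 1.17 (epithelial), -0.18 (mesenchymal), 0.10 (YAP and TAZ, reversed), -1.78 (lung lineage), -1.22 (NRF2 targets), -0.18 (NRF2 regulators), -1.89 (aldo-keto reductases), -0.66 (aldehyde dehydrogenases), 0.48 (G1), -1.91 (p53), -0.036 (BCL2 family), 0.21 (repair), -0.36 (receptors and ligands), 0.88 (inflammasome), -2.91 (chemokines), 0.0033 (cancer-testis) and -0.75 (HOX). CCN2 (0.59), POLH (-1.29) and SQSTM1 (-0.12) passed in the other direction there, while FAS (-0.11, adjusted p = 0.108) and NOTCH1 (-0.033, adjusted p = 0.691) lost their calls with a change of sign. SQSTM1 no longer passed after removal of the GC trend (0.07, adjusted p = 0.0531), and YAP1 no longer passed after quantile normalization (0.07, adjusted p = 0.0991). The causes were not tested. Depth is unknown, so that a gene near 0 could not be given a limit of detection.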
